A study of Mus musculus with 12 samples.

Results

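The oligoadenylate synthetase (Oas) family was examined as 6 mouse genes, Oas1a, Oas1b, Oas2, Oas3, Oasl1 and Oasl2, chosen by name from the 21959 genes of the expression table. RNA had been sequenced from C8-D1A cells, a cloned astrocyte line from mouse cerebellum, 24 h after the medium was acidified in 1 of 3 ways. The groups were cells kept under 15% CO2, cells given 20 mM lactic acid, cells in medium lowered to 0.2 g/L NaHCO3 (low-NaHCO3 medium), and control cells at 37 °C under 5% CO2, with 3 libraries each. All groups are of this 1 line, no label tells if replicate libraries stem from different cultures, and p-values therefore measure only the spread between these libraries, which may be technical. Values are TPM (transcripts per 1000000), a length-corrected share of each library, so levels of different genes can be set side by side.

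OAS enzymes bind double-stranded RNA and join ATP into short 2′-5′-linked oligoadenylates (2-5A). This second messenger is part of the antiviral defence of the cell. The genes are classical interferon-stimulated genes: a complex that includes STAT2 and IRF9 binds the interferon-stimulated response element (ISRE) in their promoters, and astrocytes are among the brain cells known to respond to interferon in this way.

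All 6 members were higher in low-NaHCO3 medium than in control cells, by 3.16-fold (Oasl1) to 64.7-fold (Oas3) in mean TPM. Under 15% CO2, 4 members rose (Oas2, Oasl2, Oas1b and Oas1a), and with lactic acid Oas1b alone of the 6 passed the test. Of all tested genes 20.5% were called higher in low-NaHCO3 medium, 1.34% under 15% CO2 and 2.73% with lactic acid. Fitted to the compared groups alone, no gene at all passed under 15% CO2 or with lactic acid against control. The summed TPM of the family was 41.6, 56.4 and 32.8 TPM under 15% CO2, 20.1, 21.1 and 20.8 TPM with lactic acid, 142, 177 and 131 TPM in low-NaHCO3 medium, and 12.5, 8.56 and 12.4 TPM in control cells. In these sums every treated library stood above every control library, and low-NaHCO3 libraries stood far above the rest. More RNA per cell and more cells that express a gene cannot be told apart in such bulk samples.

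Control replicate 1 stood apart and carried brain RNA markers. Its Spearman correlation with the other 11 libraries was 0.859 to 0.884, against at least 0.958 among those 11. Its summed neuron markers were 2036 TPM, against 86.0 to 136 TPM in the others, with all 6 markers highest there. Oligodendrocyte markers summed to 828 TPM, against 30.8 to 58.3, and microglial and macrophage markers to 105 TPM, against 3.69 to 10.6, with P2ry12 and C1qa listed at 0 in all 11 other libraries. By group, the microglial sum was 7.36 to 10.4 TPM under 15% CO2, 6.28 to 10.6 TPM with lactic acid, 3.69 to 4.61 TPM in low-NaHCO3 medium, and 8.56 to 105 TPM in control cells. Outside control replicate 1 most of this sum was Tmem119 in the other groups, while in low-NaHCO3 medium most of it was Cx3cr1, at 2.42, 2.78 and 3.85 TPM there, against 15.0, 0.388 and 0.657 TPM in control cells. Cx3cr1 was not higher under 15% CO2 or with lactic acid, and without control replicate 1 it was called higher in low-NaHCO3 medium (1.39, limma adjusted p = 3.77e-05). It entered the test only through the low-NaHCO3 group, where it is high, so that this difference is a description. The sum of the skeletal muscle markers Myog, Klhl41, Mymk and Des was highest under 15% CO2, at 77.8 to 89.1 TPM. It was lowest in low-NaHCO3 medium, at 18.2 to 21.5 TPM, with control cells (32.7 to 38.9 TPM) and lactic acid (36.3 to 45.1 TPM) between. Des did not follow the sum. Its mean was highest with lactic acid, at 25.8 TPM, and lowest in control cells, at 12.1 TPM. The part of these markers in the Oas differences was not tested, and results on the Oas members are given with and without control replicate 1. Of the astrocyte markers, Vim, Sox9 and S100b were expressed, while Gfap, Slc1a2, Slc1a3, Aqp4, Gja1 and Aldh1l1 were near 0 TPM outside control replicate 1.

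The promoters of the members are shown because some, and not others, hold the letters of the ISRE. RefSeq sequence of GRCm38.p6 was at hand for 4 of the 6 members (Oas1a, Oas3, Oasl1 and Oasl2) and for the close paralog Oas1g. The paralogs Oas1c, Oas1f and Oas1h were searched too and are not printed. The 120 bases before each start site are printed 5′ to 3′ on the strand of the gene, with capitals for matches to the ISRE core (GAAA, any 2 bases, then GAAA) or to the gamma-activated site TTCNNNGAA, each searched on both strands. The regions are chr5:120907526-120907645 (minus strand) for Oas1a, chr5:120887614-120887733 (minus) for Oas1g, chr5:120777660-120777779 (minus) for Oas3, chr5:114923120-114923239 (plus) for Oasl1 and chr5:114896814-114896933 (plus) for Oasl2.
Oas1a: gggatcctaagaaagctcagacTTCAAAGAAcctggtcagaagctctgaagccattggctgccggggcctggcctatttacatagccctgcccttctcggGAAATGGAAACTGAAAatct
Oas1g: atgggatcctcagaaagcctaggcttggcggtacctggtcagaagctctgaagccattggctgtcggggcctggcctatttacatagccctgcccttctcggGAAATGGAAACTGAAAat
Oas3: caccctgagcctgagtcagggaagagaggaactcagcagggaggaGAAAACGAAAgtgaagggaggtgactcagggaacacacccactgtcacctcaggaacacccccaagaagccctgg
Oasl1: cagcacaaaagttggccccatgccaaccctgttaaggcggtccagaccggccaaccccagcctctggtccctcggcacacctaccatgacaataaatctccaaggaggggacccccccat
Oasl2: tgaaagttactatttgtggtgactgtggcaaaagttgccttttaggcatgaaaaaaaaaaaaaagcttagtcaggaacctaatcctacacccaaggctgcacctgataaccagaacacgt

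In Oas1a, the ISRE letters were found at -20 to -11 and, overlapping by 4 bases, at -14 to -5 from the start site. Oas1g had the same run at -18 to -9 and -12 to -3, inside an identical stretch of 56 bases that the promoters share. Oas3 had a single match at -75 to -66, and Oas1a also had a gamma-activated site match at -98 to -90. Within 250 upstream bases, the ISRE letters were in 2 of the 4 member promoters and in 978 of all 32851 promoters (2.98%). The gamma-activated site letters were in 1 of the 4 and in 2306 of all promoters (7.02%). No match was found in the windows of Oasl1 and Oasl2, which says only that these letters are not in these windows. Of the paralogs not printed, Oas1c had the ISRE letters on the other strand at -114 to -105 and, overlapping, at -108 to -99. Oas1f and Oas1h had no match.

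Oas1a, Oas2 and Oas3 come first. Oas1a encodes a small active synthetase. It was at 11.7, 18.3 and 8.66 TPM under 15% CO2, at 8.27, 7.04 and 4.28 TPM with lactic acid, at 39.7, 49.5 and 35.1 TPM in low-NaHCO3 medium, and at 3.75, 4.06 and 5.23 TPM in control cells. Every 15% CO2 and low-NaHCO3 library exceeded every control library, while lactic acid and control libraries overlapped. Group means were 12.9 ± 4.91, 6.53 ± 2.04, 41.4 ± 7.34 and 4.34 ± 0.783 TPM in that order (SD, n = 3 each).

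Oas2 encodes the medium synthetase, which carries a pair of OAS units. Its levels were 6.68, 10.99 and 4.56 TPM under 15% CO2, 2.04, 1.88 and 1.69 TPM with lactic acid, 15.0, 18.6 and 16.8 TPM in low-NaHCO3 medium, and 1.45, 0.344 and 1.27 TPM in control cells. The 4 groups did not overlap in any pair, with the lactic acid libraries just above the highest control. Means were 7.41 ± 3.28 TPM under 15% CO2, 1.87 ± 0.174 TPM with lactic acid, 16.8 ± 1.78 TPM in low-NaHCO3 medium and 1.02 ± 0.595 TPM in control cells.

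Oas3 encodes the large synthetase, which prefers long double-stranded RNA. It read 1.01, 2.16 and 1.68 TPM under 15% CO2, 1.06, 0.909 and 1.14 TPM with lactic acid, 23.4, 33.3 and 21.5 TPM in low-NaHCO3 medium, and 0.342, 0.309 and 0.558 TPM in control cells. It was the scarcest member in control, lactic acid and 15% CO2 cells alike, yet the fourth most abundant in low-NaHCO3 medium, where its mean was 26.1 ± 6.33 TPM, against 0.403 ± 0.135 TPM in control cells. Its 15% CO2 and lactic acid libraries overlapped, with means of 1.62 ± 0.580 and 1.04 ± 0.118 TPM, and all of them stood above the controls.

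Oas1b is a catalytically inactive relative known from the flavivirus resistance locus of mice, where common laboratory strains carry a truncated form. RefSeq lists it as a transcribed pseudogene. Its levels were 9.98, 11.4 and 7.40 TPM under 15% CO2, 4.75, 5.80 and 6.75 TPM with lactic acid, 29.3, 30.9 and 25.1 TPM in low-NaHCO3 medium, and 1.62, 1.87 and 2.60 TPM in control cells. No 2 groups overlapped. The mean was 9.61 ± 2.04 TPM under 15% CO2, 5.77 ± 0.999 TPM with lactic acid, 28.4 ± 3.02 TPM in low-NaHCO3 medium and 2.03 ± 0.509 TPM in control cells.

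The Oasl genes encode OAS-like proteins with ubiquitin-like domains at their ends. Oasl1, which lacks synthetase activity and is known in mice to restrain translation of Irf7 mRNA, was at 3.39, 2.66 and 3.03 TPM under 15% CO2, 1.82, 2.22 and 1.86 TPM with lactic acid, 4.38, 5.85 and 4.30 TPM in low-NaHCO3 medium, and 2.09, 1.09 and 1.42 TPM in control cells. It spanned the narrowest range of the 6, and its lactic acid libraries overlapped the controls through control replicate 1. Its means were 3.03 ± 0.363, 1.96 ± 0.221, 4.84 ± 0.873 and 1.53 ± 0.509 TPM in the same order. Oasl2, which in mice keeps synthetase activity, was at 8.78, 10.9 and 7.52 TPM under 15% CO2, 2.20, 3.29 and 5.12 TPM with lactic acid, 30.4, 38.9 and 27.8 TPM in low-NaHCO3 medium, and 3.29, 0.891 and 1.31 TPM in control cells. Its 15% CO2 and low-NaHCO3 libraries stood clear of the controls, while lactic acid and control libraries overlapped, again through control replicate 1. Its means were 9.05 ± 1.68, 3.54 ± 1.48, 32.4 ± 5.82 and 1.83 ± 1.28 TPM. Control replicate 1 was the highest control for Oas2, Oasl1 and Oasl2 and the lowest for Oas1a and Oas1b. Exons of the antisense gene Gm13822 overlap Oasl1 on the opposite strand, and the use of strand in counting is not given in the sources used here.

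**Figure D1:**
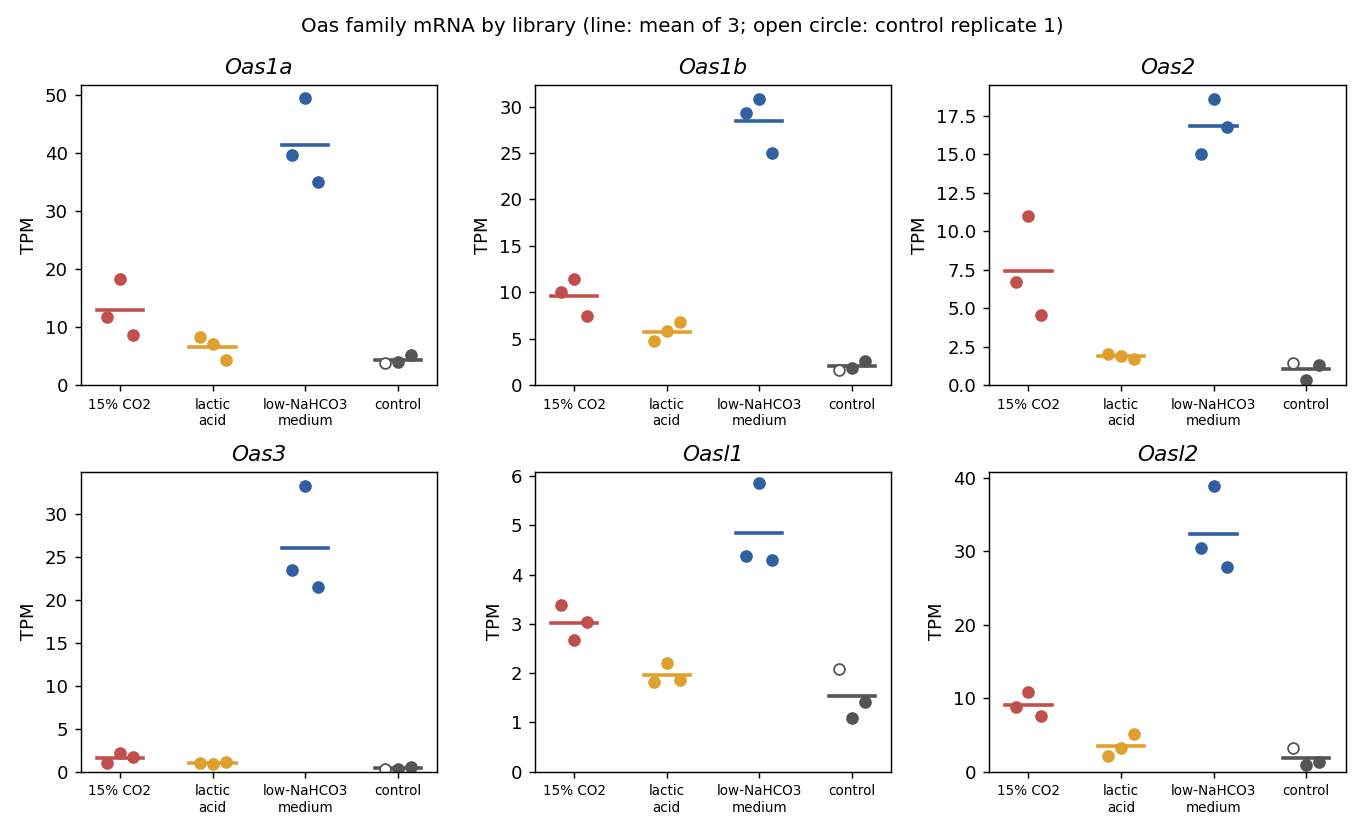
TPM on a linear axis from 0 for each of the 6 Oas genes, each panel with its own scale, with 1 point per library (open for control replicate 1) and a line at the group mean, in the order 15% CO2, lactic acid, low-NaHCO3 medium and control. Low-NaHCO3 libraries are highest for every gene, from 4.30 TPM (Oasl1) to 49.5 TPM (Oas1a).

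The order of levels differed between groups. In control cells Oas1a led, Oas1b followed without overlap, and Oas1b, Oasl2, Oasl1, Oas2 and Oas3 each overlapped the next. With lactic acid the order of means was the same, and Oas2 and Oas3 were the neighbours that did not overlap. Under 15% CO2 the order was Oas1a, Oas1b, Oasl2, Oas2, Oasl1 and Oas3, with the first 4 overlapping in turn and a gap on each side of Oasl1. In low-NaHCO3 medium it was Oas1a, Oasl2, Oas1b, Oas3, Oas2 and Oasl1, with gaps below Oas3 and below Oas2.

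Shares of the family sum give the same data per library. Oas3 made up 16.5% to 18.8% of the sum in low-NaHCO3 libraries and 2.42% to 5.48% in the other 9. Oasl1 made up 3.08% to 3.30% in low-NaHCO3 libraries and 4.72% to 16.7% in the other 9. Oas1a held the largest mean share in every group, at 29.0% under 15% CO2, 31.6% with lactic acid, 27.6% in low-NaHCO3 medium and 39.8% in control cells. These shares are descriptions of libraries, with no test.

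**Figure D2:**
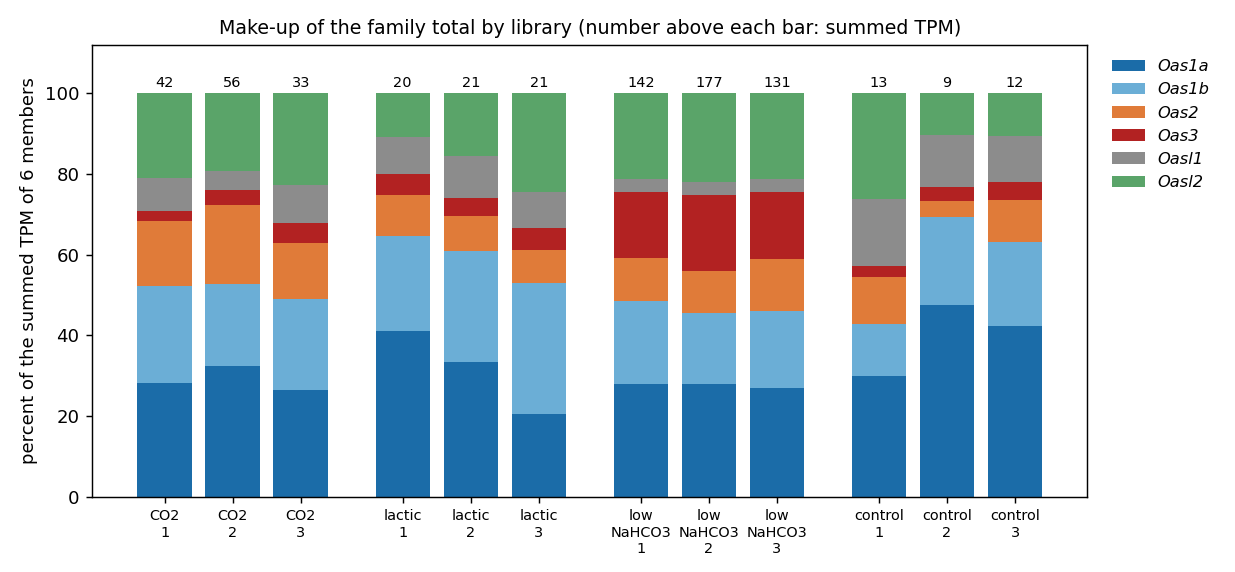
Share of each of the 6 Oas genes in the summed TPM of the family (percent), as 1 stacked bar per library with the sum above it, 15% CO2, lactic acid and low-NaHCO3 libraries standing left of the controls. The Oas3 segment is 16.5% to 18.8% in low-NaHCO3 libraries and at most 5.48% elsewhere.

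Differences were tested on log2(TPM + 1) with limma over all 12 libraries, for the 11996 genes at 1 TPM or more in the 3 libraries of at least 1 group. The pseudocount makes log2 changes of scarce genes smaller than their TPM ratios. All 6 members entered the test, but in control cells alone Oas1a, Oas1b and Oasl1 would have passed the filter. Oas2, Oas3 and Oasl2 entered only through treated groups, where they are higher, so that their differences from control are descriptions. The 3 comparisons with control share the same control libraries.

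In low-NaHCO3 medium against control, 6 of 6 members rose, where 20.5% of all tested genes were called higher (35.8% were called lower). The groups did not overlap for any member, as for 24.3% of all genes in that direction. The log2 change was 4.25 ± 0.21 (SE) for Oas3 (64.7-fold in mean TPM, limma adjusted p = 2.67e-07), 3.64 ± 0.31 for Oasl2 (17.7-fold, 5.40e-06), 3.29 ± 0.18 for Oas1b (14.01-fold, 4.34e-07), 3.18 ± 0.28 for Oas2 (16.4-fold, 7.02e-06), 2.99 ± 0.27 for Oas1a (9.54-fold, 7.37e-06) and 1.21 ± 0.18 for Oasl1 (3.16-fold, 0.000232). Among all 11996 changes ranked from the highest, Oas3 was at rank 3, Oasl2 at 10, Oas1b at 21, Oas2 at 24, Oas1a at 29 and Oasl1 at 372. The members' median was 3.23, against -0.19 for all genes.

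Without control replicate 1 all 6 still rose, where 23.1% of all genes were called higher. The log2 change was then 4.22 for Oas3, 3.98 for Oasl2, 3.34 for Oas2, 3.19 for Oas1b, 2.90 for Oas1a and 1.37 for Oasl1, with adjusted p between 7.74e-08 (Oas3) and 1.38e-05 (Oasl1). The TPM ratio of Oasl2 was 29.3 without that library, because its mean in the remaining control libraries was 1.10 TPM.

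Under 15% CO2 against control, 4 of 6 members rose, where 1.34% of all tested genes were called higher. The libraries of all 6 stood above every control, as for 15.6% of all genes. The log2 change was 2.03 ± 0.28 for Oas2 (7.24-fold in mean TPM, limma adjusted p = 0.00806), 1.91 ± 0.31 for Oasl2 (4.94-fold, 0.0146), 1.80 ± 0.18 for Oas1b (4.74-fold, 0.00367) and 1.33 ± 0.27 for Oas1a (2.97-fold, 0.0344). Oas2 had the highest of all 11996 changes, Oasl2 ranked 4, Oas1b 7 and Oas1a 28.

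Oas3 and Oasl1 did not pass. Oas3 had a log2 change of 0.88 (95% interval 0.42 to 1.33, adjusted p = 0.0695) and Oasl1 of 0.68 (0.29 to 1.08, adjusted p = 0.101). On log2(TPM + 0.1), Oas3 passed (1.74, adjusted p = 0.0216). Without control replicate 1, all 6 passed, where 5.99% of all genes were called higher, with log2 changes of 2.25 for Oasl2 (0.0015), 2.19 for Oas2 (0.00252), 1.71 for Oas1b (0.0015), 1.25 for Oas1a (0.0266), 0.85 for Oas3 (0.0360) and 0.84 for Oasl1 (0.00907). The median over the members was 1.57 with all libraries, against 0.012 for all genes, and 1.48 without control replicate 1.

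The Oas1a and Oasl2 calls under 15% CO2 depended on single libraries. Without 15% CO2 replicate 1, 15% CO2 replicate 2 or control replicate 2, Oasl2 had adjusted p of up to 0.0814 and only 2 members passed. Calls over all genes shrank too in these fits, to 0.249%, 0.291% and 0.432% in that order, against 1.41% with all 12 libraries. The Oas1a call was also lost on leaving out any of 8 of the 12 libraries, 5 of them from groups outside the comparison, with adjusted p from 0.0259 to 0.132 over the 12. Fitted to the 6 libraries of the comparison alone, no member passed after adjustment in limma, and 0 of all 11798 genes tested passed. An unadjusted limma p under 0.05 was found for 6 of 6 members and for 1174 of all genes.

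With lactic acid against control, 1 of 6 members rose, where 2.73% of all tested genes were called higher. That member was Oas1b, with a log2 change of 1.16 ± 0.18 (2.84-fold, limma adjusted p = 0.0110) and rank 19 of all changes. Oas1b, Oas2 and Oas3 stood above every control without overlap, which held for 15.3% of all genes. Oasl2 had a log2 change of 0.72 (95% interval 0.04 to 1.40, adjusted p = 0.189), Oas2 of 0.55 (-0.07 to 1.17, 0.259), Oas3 of 0.54 (0.08 to 0.997, 0.149), Oas1a of 0.46 (-0.12 to 1.05, 0.309) and Oasl1 of 0.24 (-0.16 to 0.64, 0.422). Without control replicate 1, Oas1b (1.07, adjusted p = 0.00461) and Oasl2 (1.07, 0.0161) passed, where 9.31% of all genes were called higher. The members' median was 0.55, against -0.033 for all genes.

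**Figure D3:**
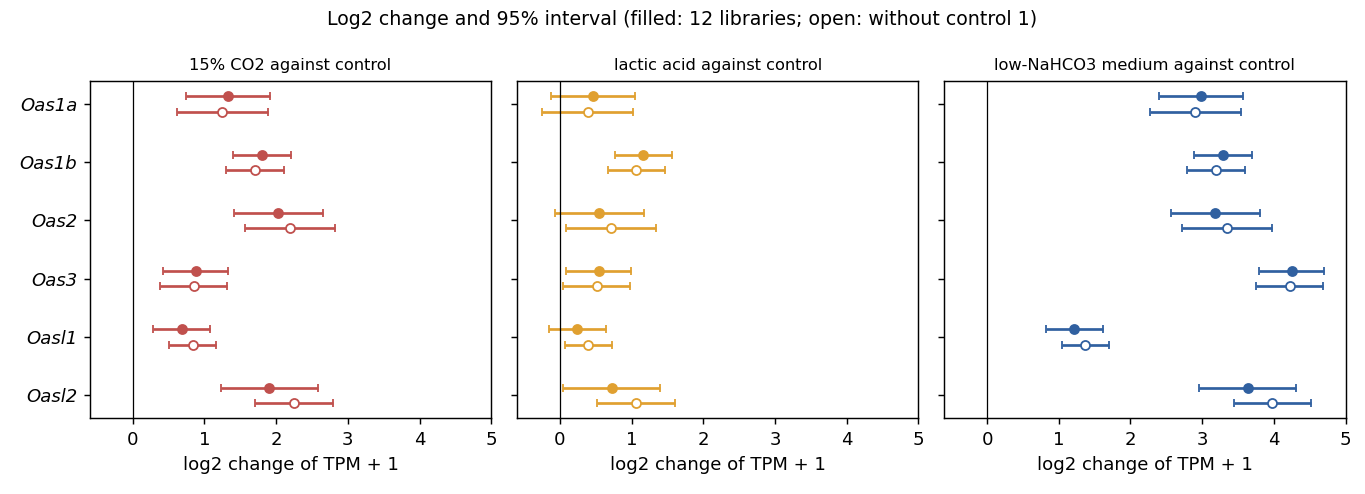
Log2 change on the log2(TPM + 1) scale with its 95% interval for each Oas gene in each of the 3 treatments against control, filled for all 12 libraries and open without control replicate 1. Low-NaHCO3 changes over 12 libraries run from 1.21 (Oasl1) to 4.25 (Oas3), and lactic acid changes from 0.24 (Oasl1) to 1.16 (Oas1b).

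The treatments were also compared with each other. Under 15% CO2 against lactic acid, 0 of 6 members passed (limma; 5 of 6 at an unadjusted p under 0.05), where 0.275% of all genes were called higher. The largest difference was in Oas2, at 1.48 ± 0.28 (adjusted p = 0.0646), followed by Oasl2 at 1.19 ± 0.31 (0.195), and 5 members did not overlap between these groups, as for 15.6% of all genes. Without control replicate 1, which is in neither group but enters the shared estimate of spread, Oas2 (adjusted p = 0.0105), Oasl2 (0.0145) and Oas1b (0.64, 0.0497) were higher under 15% CO2, where 3.09% of all genes were called higher.

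Against low-NaHCO3 medium, 6 of 6 members were lower under 15% CO2, where 18.1% of all genes were called lower. The difference was -3.37 ± 0.21 for Oas3 (adjusted p = 9.13e-07) and between -1.15 (Oas2, 0.00549) and -1.73 (Oasl2, 0.000798) for Oas1a, Oas1b, Oas2 and Oasl2. It was -0.53 for Oasl1 (0.0291), a call lost without 15% CO2 replicate 2 or 3 or without low-NaHCO3 replicate 2 (adjusted p up to 0.111). With lactic acid against low-NaHCO3 medium, 6 of 6 were lower, where 18.3% of all genes were called lower, from -3.71 (Oas3, 8.82e-07) to -0.97 (Oasl1, 0.00118). None of these groups overlapped for any member, as for 26% of all genes under 15% CO2 and 27.1% with lactic acid. Without control replicate 1, again 6 of 6 were lower in each comparison, where 24.2% of all genes were called lower under 15% CO2 and 24.8% with lactic acid.

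Which replicate was highest varied between members in every group but low-NaHCO3 medium, where replicate 2 was the highest library for all 6. Under 15% CO2, replicate 2 was the highest for 5 members, with Oasl1 lowest there. With lactic acid, replicate 1 was highest for Oas1a and Oas2, replicate 2 for Oasl1 and replicate 3 for Oas1b, Oas3 and Oasl2. Among control libraries, replicate 1 was highest for Oas2, Oasl1 and Oasl2 and replicate 3 for Oas1a, Oas1b and Oas3. Over all 12 libraries, Pearson correlations of log2 values between pairs of members were 0.873 (Oas2 and Oas3) to 0.966, and each member's correlation with the mean of the members was 0.948 (Oas3) to 0.984 (Oasl2). These describe 12 libraries in 4 groups that differ in level.

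The neighbouring Oas1 paralogs were read beside the members. Mouse chromosome 5 holds, in the RefSeq order of GRCm38.p6, Oas2, Oas3, Oas1e, Oas1c, Oas1b, Oas1f, Oas1h, Oas1g, Oas1a and Oas1d between Dtx1 and Rph3a, and, apart from these, Oasl2 next to Oasl1. Oas1g was at 3.36, 3.68 and 2.81 TPM under 15% CO2, 2.87, 2.20 and 1.46 TPM with lactic acid, 11.8, 17.7 and 11.7 TPM in low-NaHCO3 medium, and 0.776, 1.03 and 2.42 TPM in control cells. It rose in low-NaHCO3 medium by 2.65 ± 0.27 (adjusted p = 1.58e-05) and did not pass under 15% CO2 (0.89, 0.143) or with lactic acid (0.43, 0.341). With all 12 libraries Oas1g would not have passed the filter in control cells alone, so that these differences from control are descriptions. Without control replicate 1 its low-NaHCO3 change was 2.46 (9.57e-06). Oas1c reached 3.22 TPM in low-NaHCO3 replicate 2, Oas1h reached 1.17 TPM, Oas1d and Oas1e stayed at or below 0.318 TPM, and Oas1f was listed at 0 in every library, so these were not tested.

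Oas1a and Oas1g share long identical stretches, and how such reads were counted is not given in the sources used here. Of the 100-base windows of the Oas1a transcript, 40.9% occur also in Oas1g, and 38.2% of those of Oas1g in Oas1a. For the other 5 members no 100-base window is shared with another gene. The sum of Oas1a and Oas1g, which depends little on how reads were split between them, was 15.1, 22.0 and 11.5 TPM under 15% CO2, 11.1, 9.24 and 5.73 TPM with lactic acid, 51.5, 67.2 and 46.9 TPM in low-NaHCO3 medium, and 4.52, 5.09 and 7.65 TPM in control cells. Its mean ratio to control was 2.81, 1.51 and 9.60 in the 3 treatments, close to the 2.97, 1.503 and 9.54 of Oas1a alone.

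Beside the synthetases, 3 genes that bear on 2-5A were read. Of these, 1 rose in low-NaHCO3 medium, where 20.5% of all genes were called higher, and 0 passed under 15% CO2 or with lactic acid (limma; 0 of 3 under 15% CO2 and 1 of 3 with lactic acid had an unadjusted p under 0.05). The gene that rose was Abce1, a ribosome-recycling ATPase. It was at 210.9, 229 and 228 TPM under 15% CO2, 234, 233 and 241 TPM with lactic acid, 296, 282 and 293 TPM in low-NaHCO3 medium, and 175, 254 and 254 TPM in control cells. Its low-NaHCO3 libraries stood above every other library, and its change against control was 0.37 ± 0.13 (adjusted p = 0.0290). Control replicate 1 was the lowest library for Abce1, and without it the change was 0.19 (0.0205). Akap7, which like Pde12 degrades 2-5A, passed without control replicate 1 in low-NaHCO3 medium (0.49, 0.00735) and with lactic acid (0.63, 0.0115), so that 2 of 3 and 1 of 3 genes then rose, where 23.1% and 9.31% of all genes were called higher.

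Upstream, transcripts of interferons were scarce. Ifnb1, which encodes interferon beta, was at 2.13, 1.33 and 4.63 TPM in low-NaHCO3 medium and listed at 0, 0.583 and 0 TPM in control cells. Under 15% CO2 it was listed at 0 in all 3 libraries and with lactic acid in 2 of them, with 0.239 TPM in the other. Its log2 change in low-NaHCO3 medium was 1.57 ± 0.32 (limma adjusted p = 0.00175), and 1.45 without control replicate 1. Ifnb1 passed the filter only through the low-NaHCO3 group, where it is high, so that this difference is a description. Of the 14 interferon ligands and receptors, 6 could be tested. In low-NaHCO3 medium, where 35.8% of all genes were called lower, the interferon gamma receptor genes Ifngr1 (-0.43, 0.000945) and Ifngr2 (-0.66, 0.00229) fell, and the type I receptor genes had changes of 0.06 for Ifnar1 (0.559) and -0.31 for Ifnar2 (0.0864). With control replicate 1 left out, Ifngr1 (-0.50), Ifngr2 (-0.51), Ifnar2 (-0.44, 0.0109) and Il10rb fell, 4 of 6, where 41.5% of all genes were called lower. Of these 6, 0 passed under 15% CO2 or with lactic acid (limma; 1 and 0 at an unadjusted p under 0.05).

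Between receptor and ISRE lie the transducers of the interferon signal, of which 11 were read. Under 15% CO2, 4 rose, where 1.34% of all genes were called higher. With lactic acid 0 passed (limma; 4 at an unadjusted p under 0.05), where 2.73% of all genes were called higher. In low-NaHCO3 medium 7 rose, where the share of all genes was 20.5%. Usp18, a protease that damps the type I receptor, was at 10.2, 13.7 and 7.36 TPM under 15% CO2, 3.75, 4.68 and 3.79 TPM with lactic acid, 47.2, 59.0 and 44.2 TPM in low-NaHCO3 medium, and 2.68, 2.11 and 2.21 TPM in control cells. Its change was 1.74 ± 0.19 (adjusted p = 0.00367) under 15% CO2 and 3.93 ± 0.19 (2.67e-07) in low-NaHCO3 medium. Irf7, whose product drives interferon genes, rose by 1.64 (0.00748) under 15% CO2 and by 3.72 (6.23e-07) in low-NaHCO3 medium. Without control replicate 1 these changes were 1.82 and 4.0 for Usp18 and 1.73 and 3.82 for Irf7, and all 4 passed.

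Of the genes of the ISRE-binding complex, Stat2 and Irf9 rose under 15% CO2 by 0.95 each (0.00806 and 0.0116). In low-NaHCO3 medium Stat2 rose by 2.12 (8.48e-07) and Irf9 by 1.91 (2.77e-06). Irf1, Irf2 and Jak1 also rose there. Again 4 transducers under 15% CO2 and 7 in low-NaHCO3 medium passed with control replicate 1 left out, when 5.99% and 23.1% of all genes were called higher. Stat2 then had 1.05 and 2.23, and Irf9 had 0.96 and 1.91. Socs1, an inhibitor of the pathway, then fell in low-NaHCO3 medium (-0.56, 0.0281), where 41.5% of all genes were called lower. Usp18 (0.68, 0.0442) and Stat2 (0.43, 0.0350) then passed with lactic acid, where 9.31% of all genes were called higher.

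Other sensors of foreign or displaced nucleic acid were read in the same way. Of 9 such genes, 3 rose under 15% CO2, where 1.34% of all genes were called higher: Zbp1, a sensor of left-handed nucleic acid (1.61, adjusted p = 0.0164), Ddx58, which encodes RIG-I (1.28, 0.00367), and Ifih1, which encodes MDA5 (0.99, 0.0146). With lactic acid Ddx58 alone of the 9 rose (0.77, 0.0208), where 2.73% of all genes were called higher. In low-NaHCO3 medium 6 of 9 rose, where 20.5% of all genes were called higher, among them Dhx58 (3.42, 3.58e-06), Zbp1 (3.11, 5.70e-06), Ddx58 (2.83, 3.37e-07) and the double-stranded RNA kinase Eif2ak2 (1.33, 3.63e-05). In control cells alone Zbp1 would not have passed the filter, so that its differences from control are descriptions. With control replicate 1 left out, 8 of 9 rose in low-NaHCO3 medium, where 23.1% of all genes were called higher. Mavs fell there (-0.33, 0.00160), where 41.5% of all genes were called lower. Under 15% CO2 Zbp1 (1.85), Ddx58 (1.15) and Ifih1 (0.89) then rose again, where 5.99% of all genes were called higher. With lactic acid Zbp1 (0.80, 0.0434) rose beside Ddx58 (0.64, 0.0112), where 9.31% of all genes were called higher.

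**Figure D4:**
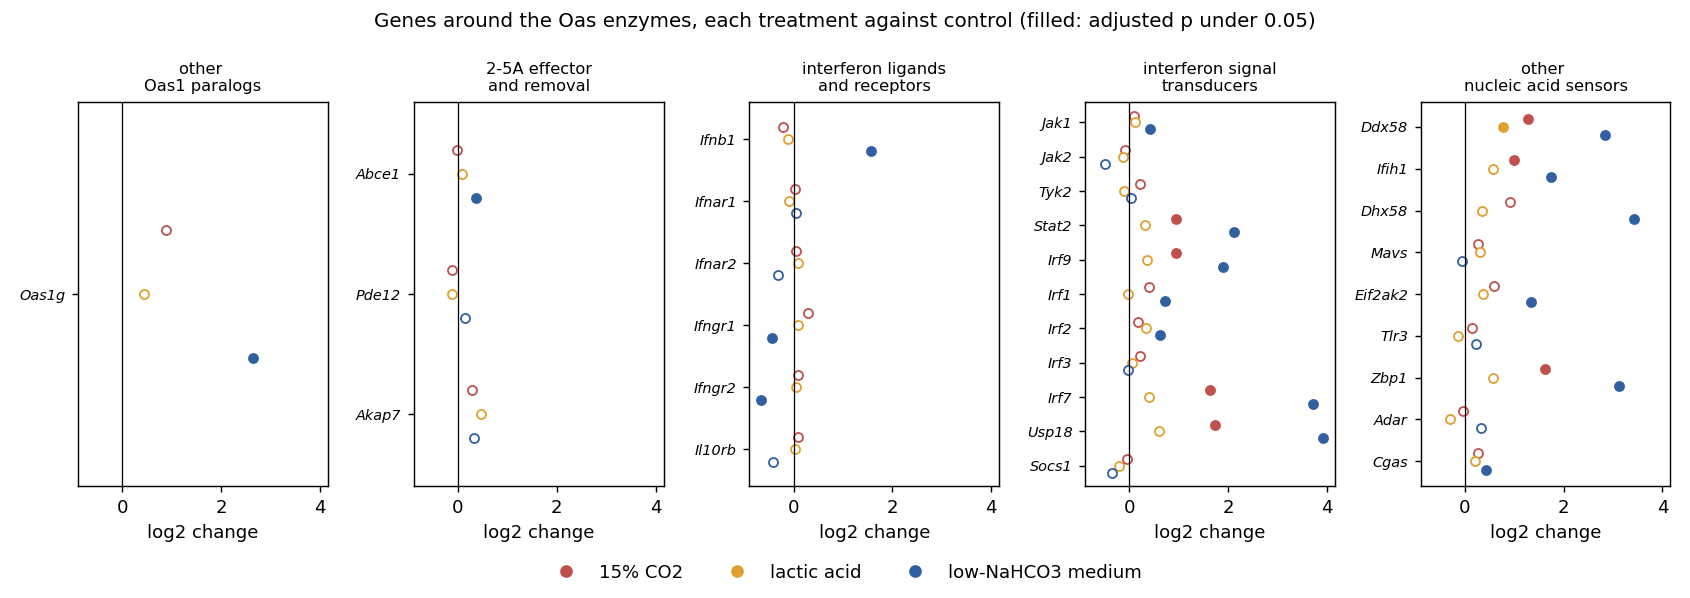
Log2 change on the log2(TPM + 1) scale (horizontal axis) against control over 12 libraries for each tested gene of the paralog, 2-5A, interferon, transducer and sensor lists, with 1 point per treatment, filled where the limma adjusted p was under 0.05. Low-NaHCO3 points reach 3.93 (Usp18) among transducers and 3.42 (Dhx58) among sensors, while the 2-5A genes stay at 0.46 (Akap7, lactic acid) or below.

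The genes whose log2 values over the 12 libraries were most like the mean of the 6 members, each scaled to unit SD, were sought among 10486 genes outside the 6. The 6 highest Pearson correlations were those of Trim12c (0.996), Usp18 (0.995), Stat2 (0.994), Irf9 (0.993), Uba7 (0.992) and Zbp1 (0.991), and over the 11 libraries without control replicate 1 they were 0.991 to 0.995. Trim12c, a tripartite-motif gene, averaged 16.7 TPM under 15% CO2, 9.06 TPM with lactic acid, 55.7 TPM in low-NaHCO3 medium and 6.0 TPM in control cells. Uba7, which encodes the enzyme that activates ISG15, averaged 7.06, 4.08, 13.1 and 2.83 TPM in the same order of groups.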

How the data were processed

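RNA was taken up in Trizol, and the library kit was NEBNext Ultra II, per the labels. The authors deposited TPM values for 21959 Ensembl genes, 1 column per library. The submitters' processing notes name fastp 0.22.0 for trimming, HISAT2 2.1.0 for alignment and the build GRCm39. Which program counted reads, with which annotation and strand setting, is not given in the sources used here. As each column sums to 1000000, TPM are shares of a library. Without counts the depth is unknown, and no counting interval or detection floor is given. GENCODE M21, made for an older build, supplied symbols for 21851 of the Ensembl IDs and none for 108. Groups follow the treatment labels. Some descriptions of 15% CO2 and control replicates name CO3 or CO4, which was read as a copying error.

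Values were transformed as log2(TPM + 1), and genes with at least 1 TPM in all 3 libraries of any group were kept. limma 3.58.1 (R 4.3.3) fitted a group-means model over 12 libraries, with trended eBayes variances and 6 two-sided contrasts, each adjusted by Benjamini-Hochberg over all genes at a threshold of 0.05. The fit was tested on simulated data whose spread was taken without control replicate 1, so that this test does not cover the effect of that library. Intervals are 95% intervals of the limma coefficient, without adjustment. From each list up to 4 genes with the largest passing changes were to be named, and other list genes were named for their role after their values were seen. Likeness was sought among genes with a mean of at least 5 TPM in any group and no predicted or clone-based name, and the 6 highest correlations were named. The members and gene lists were chosen with earlier results of these data known. Some genes of these lists are not reported here. Promoters are RefSeq sequences of GRCm38.p6, and shared windows were read from the longest GENCODE M21 coding transcripts. Alternatives were another pseudocount, other filters, 2 scalings, fits to the compared groups alone, a replicate block and each library left out.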

Additional observations from a re-analysis of the deposited data

How the results depend on the processing

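Over 713 comparisons of a member's change with an alternative, 682 kept direction and side of the threshold, 21 fell below it, 10 came to pass and 0 reversed. In low-NaHCO3 medium against control, every member tested passed under every alternative (6, or 5 with the filter at 5 TPM, which Oasl1 does not pass), including the median-of-ratios and quantile scalings, which moved the median of all genes to -0.0085 and 0.0036, against -0.19. Over these alternatives 34.3% (no filter) to 64.6% (without control replicate 1) of all genes were called in either direction. Fitted to the compared groups alone, 0 members passed under 15% CO2 against control, where 0 of all 11798 genes were called. With lactic acid 0 of 5 tested passed (1 at an unadjusted limma p under 0.05), where 0 of all 11743 genes were called. Under 15% CO2 against lactic acid 1 member (Oas2) passed, where 1.57% of all genes were called. Quantile scaling also gave 1 there, where 0.358% of all genes were called. Over all genes the smaller fits with control cells called fewer genes than the fit to 12 libraries, and those without control cells called more. In low-NaHCO3 medium against control 5350 genes were called, against 6743 over 12 libraries. Under 15% CO2 against low-NaHCO3 medium 8344 were called, against 6323. Why the calls changed was not tested. With single libraries left out, the count was 2 to 6 under 15% CO2 against control (6 without control replicate 1), 1 to 2 with lactic acid, 0 to 3 under 15% CO2 against lactic acid, 5 to 6 under 15% CO2 against low-NaHCO3 medium, and 6 for lactic acid against it. In that order, the share of all genes called in either direction was 0.249% to 7.62%, 0.89% to 16.6% and 0.0499% to 4.8%. For the last 2 comparisons it was 43.3% to 69.9% and 39.8% to 68.1%. Each share was highest without control replicate 1. Testing all genes without a filter ended the calls of Oas1a under 15% CO2 against control (adjusted p = 0.0789) and of Oasl1 under 15% CO2 against low-NaHCO3 medium (0.0511).

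Correlations of same-numbered libraries' deviations ran from -0.149 to 0.49, with 3 of 18 over 0.1. For 15% CO2 with lactic acid they were -0.030, 0.351 and 0.490 in replicates 1, 2 and 3. Differently numbered libraries were not compared, so whether replicate numbers pair the samples was not tested. With a replicate block, 4 members passed under 15% CO2 against control, 1 of the lactic acid changes and 6 in low-NaHCO3 medium, as without it. In that order 0.767%, 3.11% and 56.3% of all genes were called, against 1.41%, 4.4% and 56.2% without the block. Calls over all genes under 15% CO2 numbered 92, against 169. With TPM alone, depth sets no stated limit, and 3 libraries a group limit the precision of changes near 1 TPM.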

Other observations

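Of the 4 genes that flank the Oas and Oasl clusters, picked after their values were seen, 2210016L21Rik beside Oasl1 could be tested. It averaged 17.4 TPM in low-NaHCO3 medium and 42.2 TPM in control cells, a log2 change of -1.19 ± 0.18 (limma adjusted p = 0.000235), and -0.95 without control replicate 1. Its neighbour Oasl1 had the opposite sign there, at 1.21. Dtx1 and Rph3a, which flank the larger cluster, were at 19.8 and 103 TPM in control replicate 1 and under 1 TPM in the other 11 libraries.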
